A study of Mus musculus with 11 samples.

Results

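Genes that are switched on late in sperm formation were followed in RNA from phagocytes of the mouse epididymis. They were Prm1, Prm2, Tnp1, Tnp2, Smcp, Odf1, Akap4 and Akap3. These 8 were taken by symbol from the deposited expression table of 37583 Ensembl genes, where each symbol matched 1 row. The libraries came from EGFP+ CX3CR1+ mononuclear phagocytes, the family of macrophages, dendritic cells and monocytes, double-sorted from CX3CR1 EGFP +/- mice aged 12 weeks. In these animals EGFP is made under the control of the fractalkine receptor gene Cx3cr1. All 3 groups share that genotype, and any cell that uses this locus carries the mark. The initial segments (IS) gave 4 libraries, the caput/corpus 3 and the cauda 4, with 4 epididymides pooled in each. The labels do not name the animals behind a library, so the p-values measure the spread between these libraries, which may in part be technical. The comparisons ask how the RNA of these cells differs with their place along the duct.

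The epididymis is the coiled duct that takes up sperm from the testis, in which they mature on their way through the initial segments, caput and corpus and are kept in the cauda until use. The 8 genes belong to the end of sperm formation in the testis. In the elongating spermatid, histones give way to the transition proteins (Tnp1, Tnp2) and then to the protamines (Prm1, Prm2), small arginine-rich proteins that pack the sperm DNA. Smcp codes for a cysteine-rich protein of the sperm mitochondria, Odf1 for a main protein of the outer dense fibres along the tail, and Akap4 and Akap3 for the anchors of protein kinase A that build the fibrous sheath of the tail. The DNA of mature sperm is packed and makes little or no new RNA, but sperm carry remnants of the messages made in the spermatid, protamine messages among them. Macrophages and dendritic cells of the duct lie in and beneath its epithelium and are known to take up material from it.

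The 8 genes were low in all libraries, with at most 98 reads on a gene, and 7 of the 8 had their highest mean in caput/corpus, as did 34.5% of the 6737 genes with 8 to 232 reads in all, the range the members span. That count rests on 1 library: without caput/corpus replicate 1 it was 4 of 8 (Prm1, Tnp1, Tnp2 and Odf1; 35.9% of the same genes), and in the 8 libraries whose sources match, described next, 5 of 8 (35.5%). Together they held 501 reads of 264985804, of which 50 were in IS, 335 in caput/corpus and 116 in cauda libraries. With libraries named after the columns of the deposited table, Prm1 was read in all 3 caput/corpus libraries and in none of the 4 cauda libraries. Prm2, its neighbour on chromosome 16, was read in both regions. Akap3 alone was read only in IS. No gene of the 8 passed the test across all genes with edgeR's quasi-likelihood test and Benjamini-Hochberg adjustment.

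The libraries held between 16873180 and 31737132 reads on genes, so that 3 reads, the limit that a count of 0 allows, stood for 0.103 to 0.173 CPM (reads scaled to the effective library size). Sorted-lineage genes were high in every region: Cx3cr1 averaged 790 ± 114 CPM in IS, 418 ± 119 CPM in caput/corpus and 311 ± 50.1 CPM in cauda (SD, n = 4, 3 and 4), and Ptprc, the leukocyte antigen CD45, 668 ± 71.0, 783 ± 105 and 872 ± 87.5 CPM. Cauda replicate 1 stood apart, with a read on 13434 genes against 17053 to 18837 in the other 10 libraries. The deposited count files and the named columns of the RPKM table (CPM per kilobase of gene length) disagree on 3 libraries. The read set given here as caput/corpus replicate 1, after its column, was filed as the counts of cauda replicate 1, and the set of IS replicate 2 was filed as caput/corpus replicate 1. The set of cauda replicate 1 equals no count file. The reads of each member, and the counts of genes read in 1 region alone, are therefore also given for the 8 libraries whose 2 sources match.

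The stretches before the start sites are shown because several of the 8 genes are known targets of CREM, a spermatid activator that binds cAMP response elements, and because the members differ in whether they hold such an element. Each line gives 120 bases that end just before the start site, from RefSeq on build GRCm38.p6, 5′ to 3′ on the strand of the gene, while the deposited values were made on build mm9. The motif searched, after the values had been seen, was TGANNTCA, which takes in the full cAMP response element and its variants at the 2 central bases, on both strands. Matches are in capitals.
Prm1 (chr16:10796824-10796943, minus strand): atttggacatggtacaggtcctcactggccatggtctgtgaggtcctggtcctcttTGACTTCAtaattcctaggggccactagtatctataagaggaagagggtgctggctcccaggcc
Tnp1 (chr1:73015900-73016019, minus strand): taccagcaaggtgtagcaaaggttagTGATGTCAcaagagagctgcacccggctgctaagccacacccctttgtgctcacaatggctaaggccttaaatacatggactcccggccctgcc
Akap4 (chrX:7067395-7067514, plus strand): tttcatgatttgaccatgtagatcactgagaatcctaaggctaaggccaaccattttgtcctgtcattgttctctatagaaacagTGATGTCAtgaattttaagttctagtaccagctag
Akap3 (chr6:126852978-126853097, plus strand): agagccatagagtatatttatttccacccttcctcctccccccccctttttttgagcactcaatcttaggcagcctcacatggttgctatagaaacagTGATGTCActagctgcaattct
Prm2 (chr16:10792106-10792225, minus strand): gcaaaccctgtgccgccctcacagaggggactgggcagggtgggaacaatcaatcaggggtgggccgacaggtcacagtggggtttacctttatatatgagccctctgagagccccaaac
Tnp2 (chr16:10788656-10788775, minus strand): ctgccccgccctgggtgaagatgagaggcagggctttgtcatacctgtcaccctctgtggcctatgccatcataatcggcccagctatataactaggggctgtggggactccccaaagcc
Of the 8 genes, 7 were in the RefSeq table of 300-base windows (250 bases before to 50 after the start), and Odf1 was not. The motif was in the windows of 5 of these 7, Prm1, Tnp1, Smcp, Akap4 and Akap3, and in 4637 of all 32851 windows (14.1%). It began 64 bases before the start in Prm1, 94 in Tnp1, 35 in Akap4 and 22 in Akap3, and 24 bases after it in Smcp. Akap3 held a second match that began 1 base before the start, and Akap4 has a further start site in the table, whose window is not shown. Prm2 and Tnp2 held no match in this window. A match is a description of letters and was not tested against the levels.

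Prm1 (ENSMUSG00000022501, chromosome 16), the protamine that all mammals use, was read once in IS replicate 1, once in replicate 2, not at all in replicate 3 and 9 times in replicate 4, against 55, 16 and 19 reads in caput/corpus replicates 1 to 3 and 0 in all 4 cauda libraries. The caput/corpus libraries thus lay above every IS and every cauda library, while IS and cauda overlapped at 0. As levels these are 0.115 ± 0.182 CPM in IS, 1.23 ± 0.677 in caput/corpus and 0 in cauda (SD, n = 4, 3 and 4). Prm1 was the only member whose libraries did not overlap between groups, lower in IS than in caput/corpus and higher in caput/corpus than in cauda. Of all 23777 genes with a read, 5.36% and 4.74% showed these same orders, while 4.71% lay higher in IS than in caput/corpus, 7.21% and 5.3% higher and lower in IS than in cauda and 2.1% lower in caput/corpus than in cauda, and no member did. Of the same genes 0.694% had a read in every caput/corpus library and none in cauda. Among the genes with as many reads as the members, 1.72% had that last pattern.

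The difference in Prm1 did not pass the test across all genes. With edgeR, its log2 fold change was -3.50 ± 1.46 for IS over caput/corpus (SE; adjusted p = 0.320) and 7.90 ± 1.84 for caput/corpus over cauda (adjusted p = 0.150). Between IS and cauda the log2 fold change was 4.40 ± 1.72 (adjusted p = 0.137). Each SE given for edgeR is the size of the log2 fold change divided by the square root of the test's F. The folds against cauda, where all libraries are at 0, depend on the prior count, and so do their SE. By pooled reads, Prm1 was 11.5-fold lower in IS than in caput/corpus (95% interval 6.11 to 23.8, for counting error only). With 3 reads over the group standing for the 0 of cauda, it was 42.7-fold higher in caput/corpus than in cauda. In IS it was 3.73-fold higher than in cauda over this floor. Such folds are not strict lower limits, as they leave out the counting error of the reads above 0 and the spread between libraries. An exact two-sided permutation test of the CPM gave p = 0.0571 for IS against caput/corpus and for caput/corpus against cauda, the smallest p that 4 libraries against 3 can give, and p = 0.143 for IS against cauda. In limma on log2(RPKM + 1), where an RPKM of 0 stays at 0, Prm1 did pass: -1.54 ± 0.26 for IS over caput/corpus (adjusted p = 0.00582, with 6.18% of genes called) and 1.81 ± 0.26 for caput/corpus over cauda (adjusted p = 0.00710, with 0.946% called). Prm1 entered the filtered edgeR and limma fits only through caput/corpus, where it is high. The SE of limma is shared over the regions, and cauda, with all libraries at 0, adds little spread to it. DESeq2 called it between caput/corpus and cauda (7.40 ± 2.02, adjusted p = 0.0118, with 3.33% called) and not between IS and caput/corpus (adjusted p = 0.257, with 8.92% called). With a pseudocount of 0.1, limma called it in the same comparisons (adjusted p = 0.0185 and 0.00946, with 5.34% and 1.24% of genes called), and so it did on log2(RPKM + 1) with no filter (0.0229 and 0.0352, with 2.77% and 0.412%). Between IS and cauda no member was called by these tools, which called 23.2% (DESeq2), 20.3%, 19.9% and 10.8% (limma, in the same order) of all genes. In the 8 libraries with matching sources Prm1 had 10, 35 and 0 reads in IS, caput/corpus and cauda, its groups did not overlap in these same comparisons (nor did those of Odf1, and of 12.8% and 10.2% of all genes, in these orders), and edgeR gave log2 fold changes of -2.15 ± 1.97 (adjusted p = 0.604) and 6.68 ± 2.35 (adjusted p = 0.408). With the counts as filed, the set with 55 Prm1 reads stands as cauda replicate 1. The edgeR log2 fold changes were then -2.07 ± 2.16 (adjusted p = 0.798) and 0.98 ± 2.92 (adjusted p = 0.966). The libraries fall into 2 title series, Maj3 and Maj4, and within them the log2 fold changes of Prm1 were -5.64 ± 2.10 and -2.07 ± 1.78 for IS over caput/corpus (adjusted p = 1 and 0.620) and 8.86 ± 2.45 and 7.14 ± 2.57 for caput/corpus over cauda (adjusted p = 0.990 and 0.496).

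Prm2 (ENSMUSG00000038015, chromosome 16), the second protamine of mouse sperm, had the most reads of the 8 genes, 232 in all. It was read 6, 0, 0 and 8 times in IS replicates 1 to 4, against 84, 20 and 3 times in caput/corpus replicates 1 to 3 and 98, 5, 8 and 0 times in cauda replicates 1 to 4. The highest count of the whole set was thus in the cauda library that stands apart, and all groups overlapped. The levels were 0.139 ± 0.170 CPM in IS, 1.39 ± 1.51 in caput/corpus and 1.02 ± 1.63 in cauda (SD, n = 4, 3 and 4). With edgeR the log2 fold changes were -2.82 ± 1.78 for IS over caput/corpus (adjusted p = 0.559), -2.05 ± 1.79 for IS over cauda (adjusted p = 0.502) and 0.77 ± 1.67 for caput/corpus over cauda (adjusted p = 0.925). Cauda replicate 1 held 98 of the 111 Prm2 reads of the cauda. Without that library the log2 fold change of Prm2 was -0.58 ± 1.57 for IS over cauda (adjusted p = 0.844) and 2.53 ± 1.73 for caput/corpus over cauda (adjusted p = 0.555). The 8 matching libraries held 14 Prm2 reads in IS, 23 in caput/corpus and 13 in cauda.

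**Figure D1:**
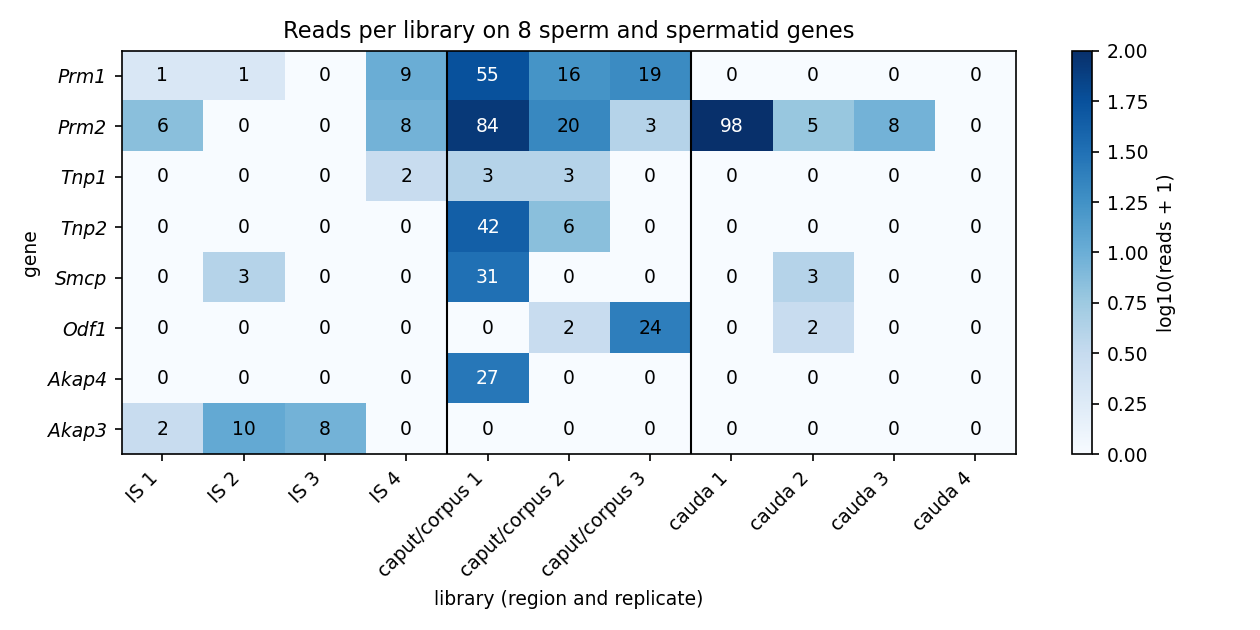
Reads on each of the 8 genes (rows) in each of the 11 libraries (columns, grouped by region); the shade gives log10(reads + 1) and the number in each cell the reads. The 335 reads of caput/corpus were spread over 7 genes with 242 of them in replicate 1, and the 98 Prm2 reads were the only member reads of cauda replicate 1.

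The balance of the 2 protamines differed between libraries. Prm1 made up 39.6% of the protamine reads in caput/corpus replicate 1 (95% exact interval 31.4 to 48.2, 139 reads), 44.4% in replicate 2 (27.9 to 61.9, 36 reads) and 86.4% in replicate 3 (65.1 to 97.1, 22 reads). In cauda replicate 1 it was 0 of 98 reads (95% exact interval 0 to 3.69%), where the floor of 3 reads stands for 3.06%. Cauda replicates 2 and 3 had 0 of 5 and 0 of 8 reads on Prm1, too few to set a useful limit. In IS, replicate 4 had 52.9% (27.8 to 77.0, 17 reads), while replicates 1 and 2 had 7 and 1 protamine reads and replicate 3 had none. The interval of cauda replicate 1 lay apart from those of all 3 caput/corpus libraries. This rests on the named columns: the set of cauda replicate 1 equals no count file. The set of caput/corpus replicate 1, with 39.6%, was filed as cauda replicate 1. These intervals cover counting error only: reads made by PCR without molecular tags are not independent molecules, so the true uncertainty is wider.

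**Figure D2:**
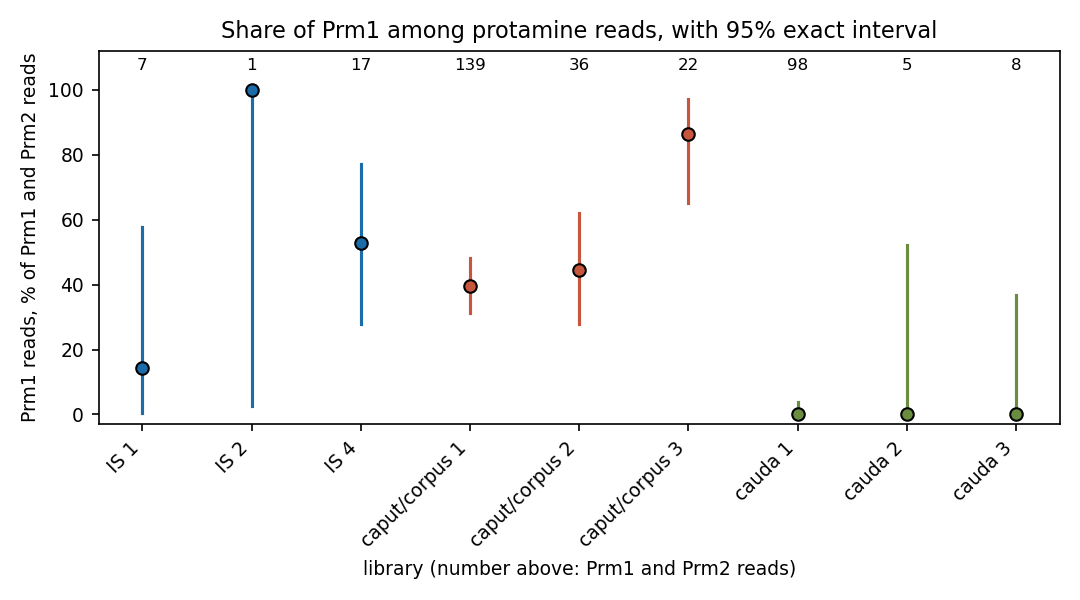
Prm1 reads as a percent of Prm1 and Prm2 reads (vertical axis) in the 9 libraries with a protamine read (horizontal axis); bars are 95% exact binomial intervals and the numbers above are protamine reads. With libraries named by column, the 3 caput/corpus libraries lay between 39.6% and 86.4%, and the 3 cauda libraries at 0.

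The transition protein genes were read mainly in caput/corpus. Tnp2 (ENSMUSG00000043050, chromosome 16) was read 0 times in all 4 IS libraries, against 42, 6 and 0 times in caput/corpus replicates 1 to 3 and 0 times in all 4 cauda libraries. Its reads were thus all in 2 caput/corpus libraries, and replicate 3 shared the 0 of the other regions. Pooled, Tnp2 was 22.4-fold lower in IS than in caput/corpus and 22.8-fold higher in caput/corpus than in cauda, over the same floor of 3 reads. Tnp1 (ENSMUSG00000026182, chromosome 1) had 0, 0, 0 and 2 reads in IS, against 3, 3 and 0 in caput/corpus and 0 in every cauda library, a total of 8. The exact permutation test gave p = 0.286 for both genes, in IS against caput/corpus as in caput/corpus against cauda. Of the 48 Tnp2 reads, the 8 matching libraries hold 6, all in caput/corpus, and of the 8 Tnp1 reads they hold 2 in IS and 3 in caput/corpus.

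Tnp2, Prm3, Prm2 and Prm1 follow one another on chromosome 16 in the RefSeq annotation of GRCm38.p6, with Socs1, a brake on cytokine signalling, beside Tnp2. Prm3, a small acidic protein coded in the same cluster, had 0 reads in IS, 8, 1 and 1 in caput/corpus replicates 1 to 3 and 0 in cauda. All 4 genes of the cluster were thus read in caput/corpus, and of these only Prm2 was read in cauda. Socs1, which leukocytes use, averaged 13.0 ± 3.71 CPM in IS, 11.7 ± 3.09 in caput/corpus and 10.8 ± 0.491 in cauda (SD, n = 4, 3 and 4).

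Of the genes of the midpiece and tail, Smcp, Odf1 and Akap4 had 83.8%, 85.7% and 100% of their reads in 1 caput/corpus library. Smcp (ENSMUSG00000074435, chromosome 3) had 0, 3, 0 and 0 reads in IS, against 31, 0 and 0 in caput/corpus and 0, 3, 0 and 0 in the cauda libraries. Odf1 (ENSMUSG00000061923, chromosome 15) had 0 reads in all IS libraries, against 0, 2 and 24 in caput/corpus and 0, 2, 0 and 0 in the cauda libraries. The 2 genes were therefore high in different caput/corpus libraries, Smcp in replicate 1 and Odf1 in replicate 3. Akap4 (ENSMUSG00000050089, chromosome X) had 27 reads, all in caput/corpus replicate 1, and 0 in the other 10 libraries. Pooled, Smcp was 14.5-fold lower in IS than in caput/corpus (95% counting interval 4.51 to 74.0) and 14.7-fold higher in caput/corpus than in cauda (4.59 to 75.2). Odf1 was 12.1-fold lower in IS than in caput/corpus over the same floor of 3 reads, and 18.5-fold higher in caput/corpus than in cauda (4.63 to 161). Since 1 library decides each of these values, the SD in caput/corpus exceeded the mean. The levels there were 0.378 ± 0.654 CPM for Smcp, 0.419 ± 0.645 for Odf1 and 0.329 ± 0.570 for Akap4 (SD, n = 3). The exact permutation p was 0.857 for Smcp and Akap4 and 0.286 for Odf1, both for IS against caput/corpus and for caput/corpus against cauda. With reads in so few libraries, this p depends mainly on which libraries hold reads and does not measure the spread. DESeq2 did call Akap4 between caput/corpus and cauda (adjusted p = 2.12e-05), on those 27 reads of 1 library. In the 8 matching libraries Smcp had 3 reads, all in cauda, Akap4 had 0, and Odf1 kept all of its 28.

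Akap3 (ENSMUSG00000030344, chromosome 6) was read in IS alone. This second anchor of the fibrous sheath had 2, 10, 8 and 0 reads in IS replicates 1 to 4, against 0 in all 3 caput/corpus and all 4 cauda libraries. IS replicate 4 thus shared the 0 of the other regions. The level was 0.220 ± 0.217 CPM in IS (SD, n = 4). By pooled reads over the same floor of 3 reads, it was 4.76-fold higher than in caput/corpus and 6.77-fold higher than in cauda. The exact permutation test gave p = 0.229 for IS against caput/corpus and p = 0.143 for IS against cauda. In the 8 matching libraries Akap3 had 10 reads, all in IS. Akap3 and Akap4, whose proteins meet in the same sheath, were not read in the same library. Akap3 was read in only 3 libraries and Akap4 in 1, too few to show that they exclude each other.

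**Figure D3:**
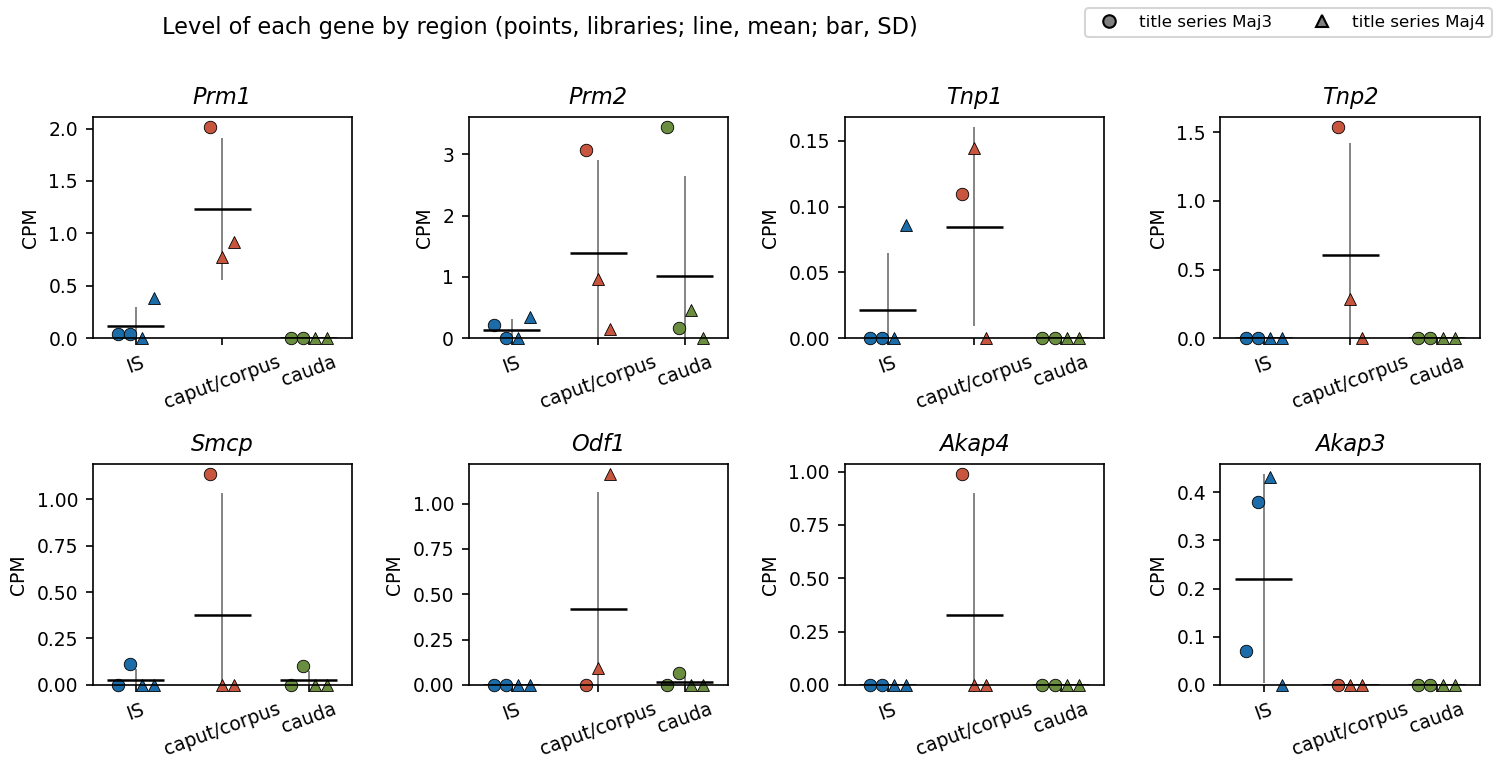
Level of each gene in CPM (vertical axis, its own scale in each panel) by region (horizontal axis); points are libraries, circles and triangles the title series Maj3 and Maj4, the line the mean and the bar the SD, with its lower end stopped at 0. Only for Prm1 do all 3 caput/corpus points, 0.770 to 2.01 CPM, lie above every point of IS and cauda, and only Akap3 has its points above 0 in IS alone.

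Per gene length, the protamines led in caput/corpus, with mean levels of 2.64 ± 1.45 RPKM for Prm1 and 2.26 ± 2.45 for Prm2 (SD, n = 3). Below them stood Tnp2 at 1.11 ± 1.49, Smcp at 0.466 ± 0.807, Odf1 at 0.380 ± 0.584, Tnp1 at 0.204 ± 0.181 and Akap4 at 0.104 ± 0.181 RPKM. No neighbours in this order differed by more than their spread. In cauda the highest mean was that of Prm2, at 1.65 ± 2.64 RPKM (SD, n = 4), and in IS those of Prm1 at 0.247 ± 0.391 and Prm2 at 0.226 ± 0.276 RPKM (SD, n = 4).

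The sum over the 8 genes was 0.525 ± 0.214 CPM in IS, 4.45 ± 3.81 in caput/corpus and 1.06 ± 1.60 in cauda (SD, n = 4, 3 and 4). It ranged from 0.319 to 0.819 CPM in IS, from 2.23 to 8.85 in caput/corpus and from 0 to 3.44 in cauda, so the highest cauda library lay within the caput/corpus range. Without Prm2, left out after its values were seen, the sums were 0.106 to 0.530, 1.30 to 5.78 and 0 to 0.171 CPM in the same order of regions, and no 2 regions but IS and cauda overlapped. Caput/corpus libraries held 66.9% of all member reads and 26.2% of the effective library size, and replicate 1 alone held 48.3% of the member reads. The protamines made up 66.5% of them. Caput/corpus had the highest mean sum within both title series: 0.425, 8.85 and 1.89 CPM in IS, caput/corpus and cauda of Maj3 (2, 1 and 2 libraries), and 0.625, 2.24 and 0.231 CPM in Maj4 (2 libraries each). In the 8 matching libraries the means were 0.523, 2.24 and 0.268 CPM, with 36, 93 and 18 reads. With the counts as filed, where the file that matches no column stands as IS replicate 2, they were 0.980, 1.66 and 2.39 CPM, and cauda then had the highest mean. The set filed as cauda replicate 1 summed to 974 CPM over 24 genes of the epididymal epithelium, against 39.9 to 53.2 CPM in cauda replicates 2 to 4. The set filed as caput/corpus replicate 1 had 3959 CPM, against 593 and 734 CPM in caput/corpus replicates 2 and 3. Which source is right was not tested. In such bulk samples fewer cells of a type and less RNA per cell cannot be told apart.

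Across all genes, edgeR tested 15116. At an adjusted p under 0.05 it called 3.78% for IS over caput/corpus, 16.5% for IS over cauda and 0.615% for caput/corpus over cauda. Of the 8 members, 2 passed the filter on low counts: Prm2, and Prm1, which passed only through caput/corpus, where it is high. None of these 2 was called in any comparison, and Prm1 was the 1 of the 2 with an unadjusted p under 0.05 in each, a threshold passed by 15.1%, 29.7% and 11.7% of all genes tested. The other 6 members were too low to be tested. With no filter edgeR tested all 8 and called 0, against 2.38%, 9.5% and 0.774% of all genes, and 3, 2 and 3 members had an unadjusted p under 0.05, against 9.94%, 20.5% and 9.03% of all genes. The lowest adjusted p of a member was then that of Prm1 between caput/corpus and cauda, at 0.105, and Tnp2 stood at 0.267 between IS and caput/corpus and at 0.348 between caput/corpus and cauda. Of the 24 exact permutation tests of single members, the 16 that set 4 libraries against 3 cannot go below p = 0.0571. The other 8, of IS against cauda, can reach 0.0286 where no libraries are tied, and their lowest exact p was 0.143, without adjustment. Libraries tied at 0 raise both limits. For members read in few libraries the exact p depends mainly on which libraries hold reads. A high exact p for them does not show equal levels. Tnp2 and Akap4, at 0 in every library of IS and cauda, could show no difference there.

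Other genes of the same cells and structures were read in part alongside the members. The late spermatid list of 25 genes had 22 with a read, and 0 of these were read in IS alone, 9 (40.9%) in caput/corpus alone and 1 (4.55%) in cauda alone, Tssk1 with 2 reads. Of all 23777 genes with a read, 5.02% were read in IS alone, 4.02% in caput/corpus alone and 3.64% in cauda alone, and among the genes with as many reads as the members 3.56%, 2.17% and 1.57% were. The 9 were Tssk3, a testis kinase, Fscn3, a testis fascin, Actl7a, an actin-like protein of the sperm head, Fabp9, a fatty acid-binding protein of the sperm head, Iqcf1, Gtsf1l, Hmgb4, a testis HMG-box protein, and the sperm thioredoxins Txndc2 and Txndc8. Fabp9 had 12, 17 and 0 reads in caput/corpus replicates 1 to 3, Actl7a 0, 17 and 0, Tssk3 3, 3 and 2, and Hmgb4 7, 1 and 0. The other 5 were read in replicate 1 alone, Txndc2 with 7 reads, Fscn3 and Gtsf1l with 2 each and Iqcf1 and Txndc8 with 1 each, fewer than any member. Of all genes with 1 to 7 reads, 20.2% were read in caput/corpus alone. Of the 16 late spermatid genes with 8 or more reads, 4 were, against 0.748% of all genes with 8 or more reads. Of these 9, Tssk3 alone was read in all 3 caput/corpus libraries. The count file under IS replicate 2 that matches no column, which is not among the 11 libraries, held 17 Tssk3 and 2 Fabp9 reads. Oaz3, the antizyme of spermatids, had 5, 1, 4 and 5 reads in IS, against 32, 34 and 6 in caput/corpus and 0, 6, 2 and 0 in the cauda libraries. Over the 6 germ cell lists together, 5 of 85 genes with a read were read in IS alone, 18 (21.2%) in caput/corpus alone and 1 in cauda alone. In the 8 matching libraries the counts for caput/corpus alone were 4 of 17 late spermatid genes (23.5%) and 8 of 71 in the 6 lists (11.3%), against 3.27% of all genes, and 2 of 17 late spermatid genes were read in cauda alone. Genes with few reads are more often read in 1 region alone. No share among genes with like read numbers was taken for these 8 libraries or for the 6 lists, so the excess over all genes may be smaller than it looks. The lists were chosen with earlier results of these data known, and these counts carry no test. The 6 late spermatid genes that passed the filter had a median log2 fold change of 0.02 for IS over caput/corpus, 0.58 for IS over cauda and 0.65 for caput/corpus over cauda, against 0.02, 0.05 and 0.02 over all genes.

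Other germ cell lists gave these values. Among nuclear packaging genes H1fnt, a linker histone of the spermatid, was read only in caput/corpus replicate 1 (6 reads), while Tssk6, Chd5 and Hist1h1t had the most reads and were not called. In the tail list 3 genes were read in IS alone: Tekt1, a tektin of the axoneme, had 12 and 2 reads in replicates 1 and 2, and Spag16 and Tekt4 had 11 and 1, in replicate 2. As many were read in caput/corpus alone: Odf4 and Fsip2 had 4 and 1 reads in replicate 1, and Tekt3 had 3 in replicate 2. In the acrosome list Adam2, a sperm surface protein, had 9 reads, all in IS replicate 2, and Spaca7 had 2, in IS replicates 1 and 3. Odf2, Akap1 and Catsper2 had the most reads in the tail list, and none of the 7 tail genes tested was called. Odf2 stood at 69.2 ± 8.41 CPM in IS, 55.6 ± 12.0 in caput/corpus and 60.9 ± 26.5 in cauda (SD, n = 4, 3 and 4), and cells other than sperm use it at their centrosomes. In the metabolic list Ldhc, the lactate dehydrogenase of germ cells, had 7, 13 and 0 reads in caput/corpus and 0 elsewhere. Pgk2 and Cox8c had 1 read each there, and Pgk2 had 2 in the count file that matches no column. Hk1 and Gstm5 were not called, and Slc2a3, a glucose transporter that leukocytes share, was lower in IS than in cauda (19.7 ± 7.82 against 53.2 ± 28.7 CPM, adjusted p = 0.0329), the 1 called gene of the 5 tested. Mael, a germ cell gene of the meiotic list, had 32 reads, all in caput/corpus replicate 2 (and 28 in the count file that matches no column), and none of the 7 genes tested in that list, Zbtb16, Hspa2 and Tex14 among them, was called. The median log2 fold changes for IS over caput/corpus, IS over cauda and caput/corpus over cauda were 0.21, -0.58 and -0.80 over the 4 nuclear packaging genes tested, and 0.30, 0.84 and 0.19 over the 7 tail genes. They were -0.47, -0.60 and -0.10 over the 5 metabolic genes, 0.44, 0.62 and 0.21 over the 5 acrosome genes and -0.43, -0.49 and -0.05 over the 7 meiotic genes.

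The germ cell genes called higher in IS than in cauda were Adam3 and Spata3, and both had their highest mean in IS. Adam3, a sperm surface protein of the acrosome list, stood at 2.24 ± 0.293 CPM in IS and 0.193 ± 0.141 in cauda (SD, n = 4 each; adjusted p = 0.0455), with 0.599 ± 0.440 in caput/corpus (n = 3). Spata3, of the late spermatid list, stood at 1.07 ± 0.446 CPM in IS and 0.0195 ± 0.0228 in cauda (adjusted p = 0.0295), with 0.309 ± 0.493 in caput/corpus. Each was the 1 gene called in its list, of 5 and 6 tested, in the comparison that called 16.5% of all genes. Acrbp and Zpbp led the acrosome list by reads, and Crem, Gsg1 and Hspa1l the late spermatid list, and none of them was called. No read was found in any library for Acr, the acrosomal protease acrosin, for Acrv1, Spaca3, Spaca4 and Spaca5, for Hils1, Odf3, Catsper1, Catsper4, Pdha2, Gk2, Fhl5 and Actl7b, or for the meiotic gene Sycp1.

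**Figure D4:**
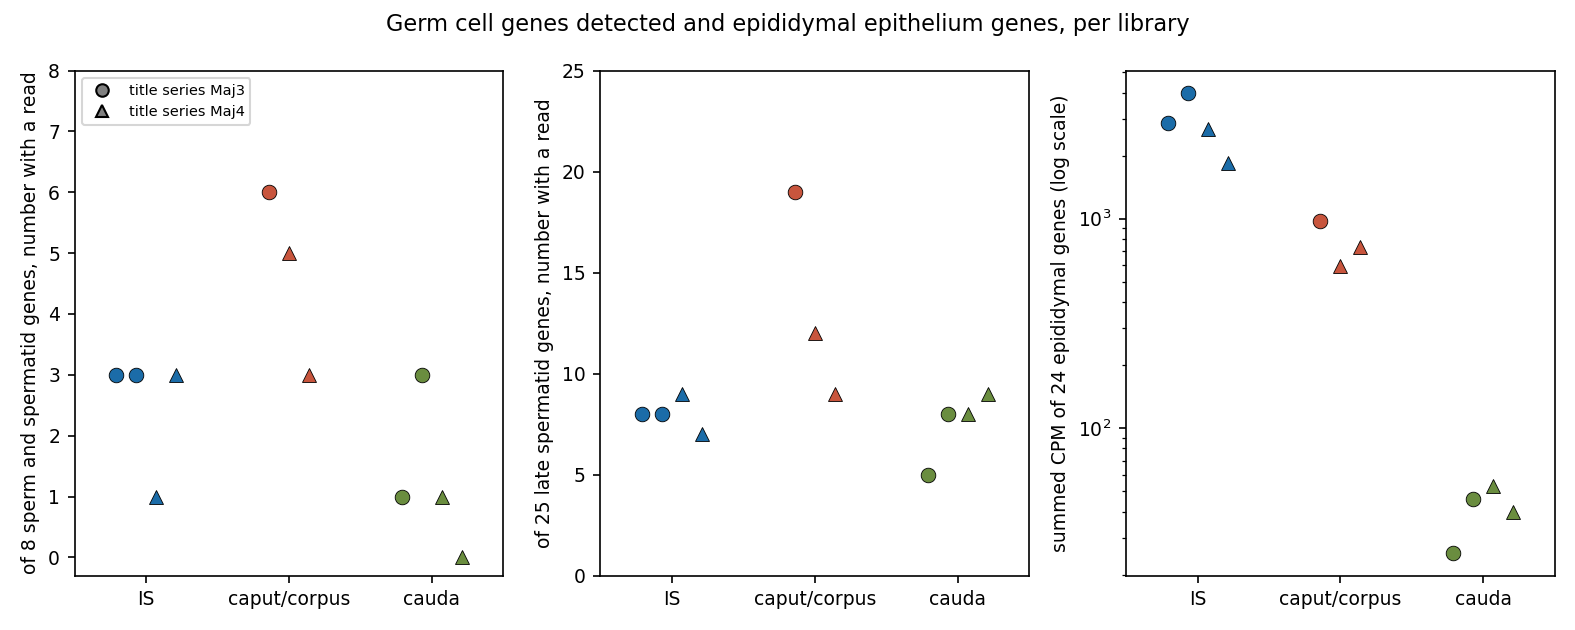
Per library and region (horizontal axes): how many of the 8 genes had a read, how many of 25 late spermatid genes had a read, and the summed CPM of 24 genes of the epididymal epithelium on a log scale; circles and triangles are the title series Maj3 and Maj4. Caput/corpus replicate 1 has the most genes in the first 2 panels (6 and 19), while the epithelial sum was highest in IS.

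Genes of the epididymal epithelium differed between the regions. The 24 genes of that list summed to 1838 to 3959 CPM in IS, 593 to 974 in caput/corpus and 25.5 to 53.2 in cauda, and 22 to 24, 23 to 24 and 13 to 21 of them had a read. Gpx5, a secreted peroxidase of the proximal duct, stood at 799 ± 297 CPM in IS, 206 ± 104 in caput/corpus and 0.624 ± 0.293 in cauda, and Lcn9, a lipocalin, at 348 ± 127, 18.7 ± 16.3 and 0.130 ± 0.102 CPM (SD, n = 4, 3 and 4). Of the 24, 10 were higher and 4 lower in IS than in caput/corpus, 17 higher and 1 lower in IS than in cauda, and 15 higher and 0 lower in caput/corpus than in cauda. The median log2 fold change of the list was 1.63, 7.21 and 6.30 in these comparisons (0.02, 0.05 and 0.02 over all genes). The read set filed under cauda but named caput/corpus replicate 1, which holds 242 member reads, had an epithelial sum of 974 CPM, against 593 and 734 in the other caput/corpus libraries and 39.9 to 53.2 in cauda replicates 2 to 4. In IS the epithelial sum was thus highest and the members' sum 0.319 to 0.819 CPM. The part of epithelial RNA in the member reads was not tested. Genes known from the Sertoli and Leydig cells of the testis were also looked at, and which cells their reads came from was not tested. The steroid enzyme genes Hsd3b1 and Hsd3b6 had no read in any library, and Star was not called. Cyp11a1 was lower in IS than in caput/corpus and in cauda (0.408 ± 0.292, 8.83 ± 5.55 and 24.0 ± 19.8 CPM, adjusted p = 0.0123 and 0.000972). Sox9, a transcription factor, was higher in IS than in cauda (11.2 ± 5.87 against 0.111 ± 0.223 CPM, adjusted p = 0.00359), with 3.66 ± 2.14 CPM in caput/corpus. The means of Sox9 fell in the same order of regions as the epithelial sums, and those of Cyp11a1 in the reverse order. The called genes were 1 of the 4 tested for IS over caput/corpus and 2 for IS over cauda.

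The genes most like the summed members over the 11 libraries, by Pearson's r of log2(CPM + 0.5), were Wfdc13 (r = 0.86, Spearman's rho 0.72), Rnf220 (0.86 and 0.88), Vps52 (0.85 and 0.83), Lst1 (0.85 and 0.78) and Hes1 (0.83 and 0.68). Wfdc13, of the epithelial list, had 0, 1, 0 and 0 reads in IS, against 582, 157 and 357 in caput/corpus and 161, 0, 17 and 12 in the cauda libraries. Without caput/corpus replicate 1, over 10 libraries, the order was Zfp7 (0.92 and 0.87), 3010026O09Rik (0.90 and 0.84), Sgms2 (0.89 and 0.73), Gm6202 (0.89 and 0.66) and Npat (0.87 and 0.82), so the 2 sets of 5 share no gene. The libraries differ in depth and in epithelial reads, and these values are a description of 11 libraries in 3 regions.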

How the data were processed

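RNA was sequenced from 11 libraries of sorted phagocytes, made with the SMARTer v4 kit and read on a HiSeq2500 per the labels' protocols. The submitters' processing notes name STAR, HTSeq, edgeR and mm9, and their settings are not given in the sources used here. The authors deposited a file of whole counts per gene for each sample, counted without strand by the files' own names, and 1 table of RPKM, in which reads are divided by the length of the gene and the effective size of the library. In that deposited table RPKM times gene length gave whole multiples of 1 step in all 11 columns for all 37583 genes (tolerance 0.001), and these whole reads were used. Of the count files 8 equal the column of the same name and 3 do not, and the named columns were followed. Rows that name no gene were left out, and their share in the count files differed by title series. Reads with no feature made up 7.75% to 11.3% in Maj3 and 18.6% to 24.8% in Maj4. Reads without a unique alignment made up 27.6% to 35.8% in Maj3 and 12.5% to 14.7% in Maj4. CPM are per effective library size after TMM. Genes were tested in 1 edgeR fit (version 4.0.16, R 4.3.3; filterByExpr with a minimum count of 10, TMM, region plus title series, quasi-likelihood test, adjusted over all genes tested), with a gene called at an adjusted p under 0.05. On simulated data this fit found 45 to 56 of 100 genes changed 2-fold and 92 to 95 of 100 changed 4-fold. Only genes above the level of the members were changed there, so the power for genes as low as the members was not tested. Single members were also compared by exact two-sided permutation tests (SciPy 1.17.1). A count of 0 was read against a floor of 3 reads. limma 3.58.1 (log2(RPKM + 1)), DESeq2 1.42.0 and other settings were run as alternatives. The members and all lists were chosen with earlier results of these data known. Named were all 8 members, the 3 genes with the most reads in each list and up to 5 called in a comparison, the 5 genes most like the summed members, Cx3cr1, Csf1r and Ptprc. Genes read in 1 region alone, Oaz3 and genes at 0 were chosen after their values were seen.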

Additional observations from a re-analysis of the deposited data

Results flagged for a closer look

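A library was set apart from the other 3 of its region when its gap to the nearest one took up more of the group's range than Dixon's 95% critical value for 4 samples allows, which chance does in about 1 in 20 groups of 4. For genes at 0 in most libraries a single library with reads is enough for this. In IS, Prm1 was set apart in replicate 4 at 0.388 CPM (9 reads), Tnp1 in replicate 4 at 0.0862 CPM (2 reads) and Smcp in replicate 2 at 0.114 CPM (3 reads). In cauda, Prm2 was set apart in replicate 1 at 3.44 CPM (98 reads), which is also the summed level of all 8 genes in that library (3.44 CPM), Smcp in replicate 2 at 0.103 CPM (3 reads) and Odf1 in replicate 2 at 0.0685 CPM (2 reads). The caput/corpus group of 3 was not tested in this way.

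The count file deposited under IS replicate 2 equals no column of the RPKM table and enters only the values with the counts as filed. It held 62 member reads of 30383072: 6 on Prm1, 13 on Prm2, 5 on Tnp2 and 38 on Smcp, with 0 on Tnp1, Odf1, Akap4 and Akap3. Its 38 Smcp reads exceed the 31 of caput/corpus replicate 1, the most in any named column.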

How the results depend on the processing

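Members called by edgeR stayed at 0 in all 3 comparisons with RLE size factors, no filter, no title series, the replicate block, either title series alone, the counts as filed, the 8 matching libraries and each library left out. In limma on log2(RPKM + 1), on log2(RPKM + 0.1) and on log2(RPKM + 1) with no filter, 1 member, Prm1, was called for IS over caput/corpus and 1 for caput/corpus over cauda, and DESeq2 called 2, Prm1 and Akap4, for caput/corpus over cauda. All genes called, for IS over caput/corpus, IS over cauda and caput/corpus over cauda, were 571, 2488 and 93. They were 1340, 3805 and 684 with DESeq2, 233, 1481 and 83 without the title series, 457, 1144 and 28 in Maj4, 0, 30 and 5 in Maj3, 0, 4 and 0 as filed, 954, 2409 and 52 in the 8 matching libraries, 934, 3068 and 143 in limma on log2(RPKM + 1), 807, 3008 and 188 on log2(RPKM + 0.1) and 566, 2260 and 184 with no filter. With 1 library left out they ranged from 234 to 1353, from 1641 to 3124 and from 29 to 205, the highest without cauda replicate 1 for the first and the last. The lone caput/corpus library of Maj3 is assumed to vary like the other groups. With the replicate number within a title series as a block, 398, 2362 and 41 genes and 0 members were called. As deviations from the region means, same-numbered libraries correlated over 0.1 in 9 of 10 pairs (median 0.161, lowest -0.0138). With the title series taken out as well, as in the fit, 2 of 10 pairs did (median -0.0480). Differently numbered libraries did in 6 of 30 pairs (median -0.0887), and with the title series taken out in 12 of 30 (median -0.0123). With the series taken out, same-numbered libraries were thus no more alike than others, and the numbers were not taken to pair the samples.

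With the counts as filed these differences turned: the log2 fold change of Prm1 for IS over cauda (-1.09) and of Prm2 for caput/corpus over cauda (-0.47), and the CPM differences of Prm1 (-0.335) and Tnp1 (-0.00582) for IS minus cauda, of Prm2 (-0.551), Tnp2 (-0.285), Smcp (-0.268) and Akap4 (-0.244) for caput/corpus minus cauda, and of Smcp (0.325) and Akap3 (-0.000526) for IS minus caput/corpus. The log2 fold change of Prm1 for caput/corpus over cauda did not turn but fell from 7.90 ± 1.84 to 0.98 ± 2.92 (edgeR adjusted p = 0.966). The summed members in IS were then 0.980 CPM. As filed, several things change at once: 2 read sets change region, the set of cauda replicate 1, with its 98 Prm2 reads, drops out, and the count file that matches no column, with 62 member reads, stands as IS replicate 2. All 38 Smcp reads of IS as filed are in that file. Members with their highest mean in caput/corpus numbered 4 to 7 with 1 library left out, an alternative added after the data were seen. Leaving out 1 library turned the CPM difference of Prm2 for caput/corpus minus cauda (-0.464 to 1.18, turned without caput/corpus replicate 1), and of Smcp for IS minus caput/corpus (-0.538 to 0.0284, without caput/corpus replicate 1), for IS minus cauda (-0.0257 to 0.0284, without IS replicate 2 or cauda replicate 1, 3 or 4) and for caput/corpus minus cauda (-0.0257 to 0.541, without caput/corpus replicate 1). At these depths 1 read stands for 0.0343 to 0.0577 CPM, and differences of a few reads between libraries cannot be told from 0.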
